A study of Homo sapiens with 6 samples.

Results

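The genes described here build the DNA replication fork and license the origins at which it starts. They were chosen by name, 51 symbols in all, from a deposited table of 60612 gene rows, and each symbol matched 1 row. The list holds the MCM2-7 helicase, the origin recognition complex, the loading factors CDC6 and CDT1 with the inhibitor GMNN, CDC45 and GINS, the firing kinase and firing factors, the replicative polymerases, the clamp and its loaders, the Okazaki fragment enzymes, RPA and the fork protection factors. All 51 had at least 0.5 FPKM (a length-scaled level, the fragments per kilobase and per depth of the library) in each of the 6 libraries and were tested. In the deposited annotation 49 of the 51 carried the Gene Ontology term for DNA replication, 29 the term for the G1/S transition and 27 the KEGG pathway DNA replication.

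Poly(A) RNA was sequenced from human cells labelled Hep3B, a liver cancer line. The siEIF4G2 group holds 3 libraries of cells treated with a small interfering RNA against EIF4G2 at 50 nM, and the siNC group holds 3 libraries of cells treated with a control small interfering RNA at 50 nM. No other agent or allele is named in the labels. Nothing there says that the replicates came from different cultures, so the p-values cover only how far these libraries scatter, which can be technical. EIF4G2 is a translation initiation factor of the EIF4G family. It stood at 178, 179.7 and 199.8 CPM (counts set against the total of the library after TMM scaling) in the siEIF4G2 libraries, against 1103, 913 and 998 CPM in the siNC libraries. The log2 fold change was -2.43 with a standard error of 0.09 (edgeR adjusted p = 0.000207), and an exact two-sided permutation test of the 6 values gave p = 0.1, the smallest that 3 against 3 allows.

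The libraries held between 63351653 and 72863628 counts. The hepatocyte markers did not bear out the label. All 12 hepatocyte markers looked up lay under 1 CPM in all 6 libraries, and 7 of them had no count in any library, namely the secreted proteins ALB, APOA1, APOB, FGB and TTR and the fetal liver genes AFP and GPC3. The extraction protocol in the labels speaks of RNA from an adipose type, which goes against the liver label given to the same samples, and the 5 adipocyte markers were also under 1 CPM. The 6 fibroblast markers summed to 622 to 659 CPM in siEIF4G2 libraries and to 533 to 560 CPM in siNC libraries. Among them COL3A1 averaged 352 CPM in siEIF4G2 and 275 CPM in siNC libraries. COL1A2 averaged only 0.575 CPM in siEIF4G2 and 1.11 CPM in siNC libraries and was not tested. COL3A1, LUM and DCN were higher and COL1A1 and PDGFRB lower after silencing. Of the 5 endothelial markers, which summed to 3.46 to 4.17 CPM in siEIF4G2 and to 10.2 to 11 CPM in siNC libraries, 4 lay under 1 CPM and CDH5 was lower. Of the 6 leukocyte markers, which summed to 19.4 to 25.1 CPM in siEIF4G2 and to 31.5 to 36.9 CPM in siNC libraries, PTPRC and CD3E were at 0 and CD68 was lower. The part of these markers in the results below was not tested, and the cells are called by their label only.

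Replication starts in steps. In G1 the origin recognition complex, CDC6 and CDT1 load the MCM2-7 ring onto DNA in an inactive form, and geminin (GMNN) later blocks CDT1 so that origins are not loaded again in the same cycle. In S phase the kinase CDC7 with its activator DBF4, and a set of firing factors, let CDC45 and GINS join MCM2-7, which makes the active helicase. Polymerase alpha-primase then lays primers, polymerases epsilon and delta extend them with the sliding clamp PCNA, which replication factor C loads, and FEN1 and LIG1 finish the lagging strand. Many of these genes are known targets of E2F transcription factors, which are active from late G1 into S phase.

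The promoters of 6 of the genes are shown to set MCM10, the gene of the list with the largest change, beside genes that carry an E2F motif and did or did not pass the test. The sequences are from RefSeq on GRCh38.p14, on the strand of the gene, and start 160 bases before the annotated start. Each ends at the last base before the start or, where GENCODE 29 has an exon there, before that exon. Capitals mark matches to the E2F motifs TTTGGCGC, TTTCCCGC, TTTGCCGC and TTTCGCGC on either strand, where matches on both strands can overlap.
MCM10, chr10:13161398-13161553, plus strand, no match: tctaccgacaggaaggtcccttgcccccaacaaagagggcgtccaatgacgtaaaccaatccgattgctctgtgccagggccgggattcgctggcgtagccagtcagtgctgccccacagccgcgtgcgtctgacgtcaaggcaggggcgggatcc
TIPIN, chr15:66356717-66356845, minus strand: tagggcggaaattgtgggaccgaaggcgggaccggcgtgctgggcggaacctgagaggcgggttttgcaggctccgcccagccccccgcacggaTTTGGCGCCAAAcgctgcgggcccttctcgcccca
PCNA, chr20:5126627-5126782, minus strand: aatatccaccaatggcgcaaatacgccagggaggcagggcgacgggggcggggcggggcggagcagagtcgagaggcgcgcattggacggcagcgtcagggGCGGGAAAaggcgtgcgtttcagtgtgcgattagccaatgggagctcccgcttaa
POLA1, chrX:24693758-24693917, plus strand: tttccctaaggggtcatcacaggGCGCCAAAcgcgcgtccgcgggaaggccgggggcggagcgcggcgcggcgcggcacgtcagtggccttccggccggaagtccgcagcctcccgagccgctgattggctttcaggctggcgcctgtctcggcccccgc
MCM6, chr2:135876444-135876603, minus strand: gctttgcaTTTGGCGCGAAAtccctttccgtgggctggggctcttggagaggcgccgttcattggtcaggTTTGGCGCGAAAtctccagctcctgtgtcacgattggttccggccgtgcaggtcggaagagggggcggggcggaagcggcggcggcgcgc
GMNN, chr6:24775253-24775412, plus strand: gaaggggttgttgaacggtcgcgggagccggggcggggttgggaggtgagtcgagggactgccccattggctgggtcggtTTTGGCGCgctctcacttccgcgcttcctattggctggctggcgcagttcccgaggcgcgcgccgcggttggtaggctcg
MCM10, TIPIN, PCNA and POLA1 were higher after silencing, and MCM6 and GMNN did not pass the test.

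Across the list, 26 of the 51 genes (51.0%) rose after EIF4G2 silencing at an adjusted p of 0.05 or less, where 15.9% of all 13748 tested genes rose. None fell at that threshold in edgeR, in DESeq2 or in limma, where 17.6% of all tested genes fell in edgeR. PRIM2 was the 1 member that was lower at an unadjusted p under 0.05. In a bulk sample such a change cannot tell more RNA per cell from more cells that are in the phase where the gene is used. The median log2 fold change of the 51 genes was 0.26, beside 0.01 over all tested genes, and the single genes ran between -0.16 for ORC3 and 1.04 for MCM10. For 35 members all 3 siEIF4G2 values lay above all 3 siNC values, which held for 25.0% of tested genes. For 3 members, ORC4, PRIM2 and RPA1, all 3 siEIF4G2 values lay below, which held for 25.6% of tested genes, and the other 13 members overlapped. The changes were small in size: 9 members (17.6%) rose by a log2 fold change of at least 0.5, where 6.32% of tested genes did so. Leaving out 1 library at a time gave 19 to 23 members that rose, the fewest without siNC replicate 1 or siNC replicate 2. The calls over all tested genes, in either direction, were then 3352 to 4134, against 4597 with all libraries. Below, means are given ± SD over the 3 libraries of a group and log2 fold changes ± SE. Counts of genes that rose within a complex rest on few genes each. They are to be read beside the 15.9% of all tested genes that rose.

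**Figure D1:**
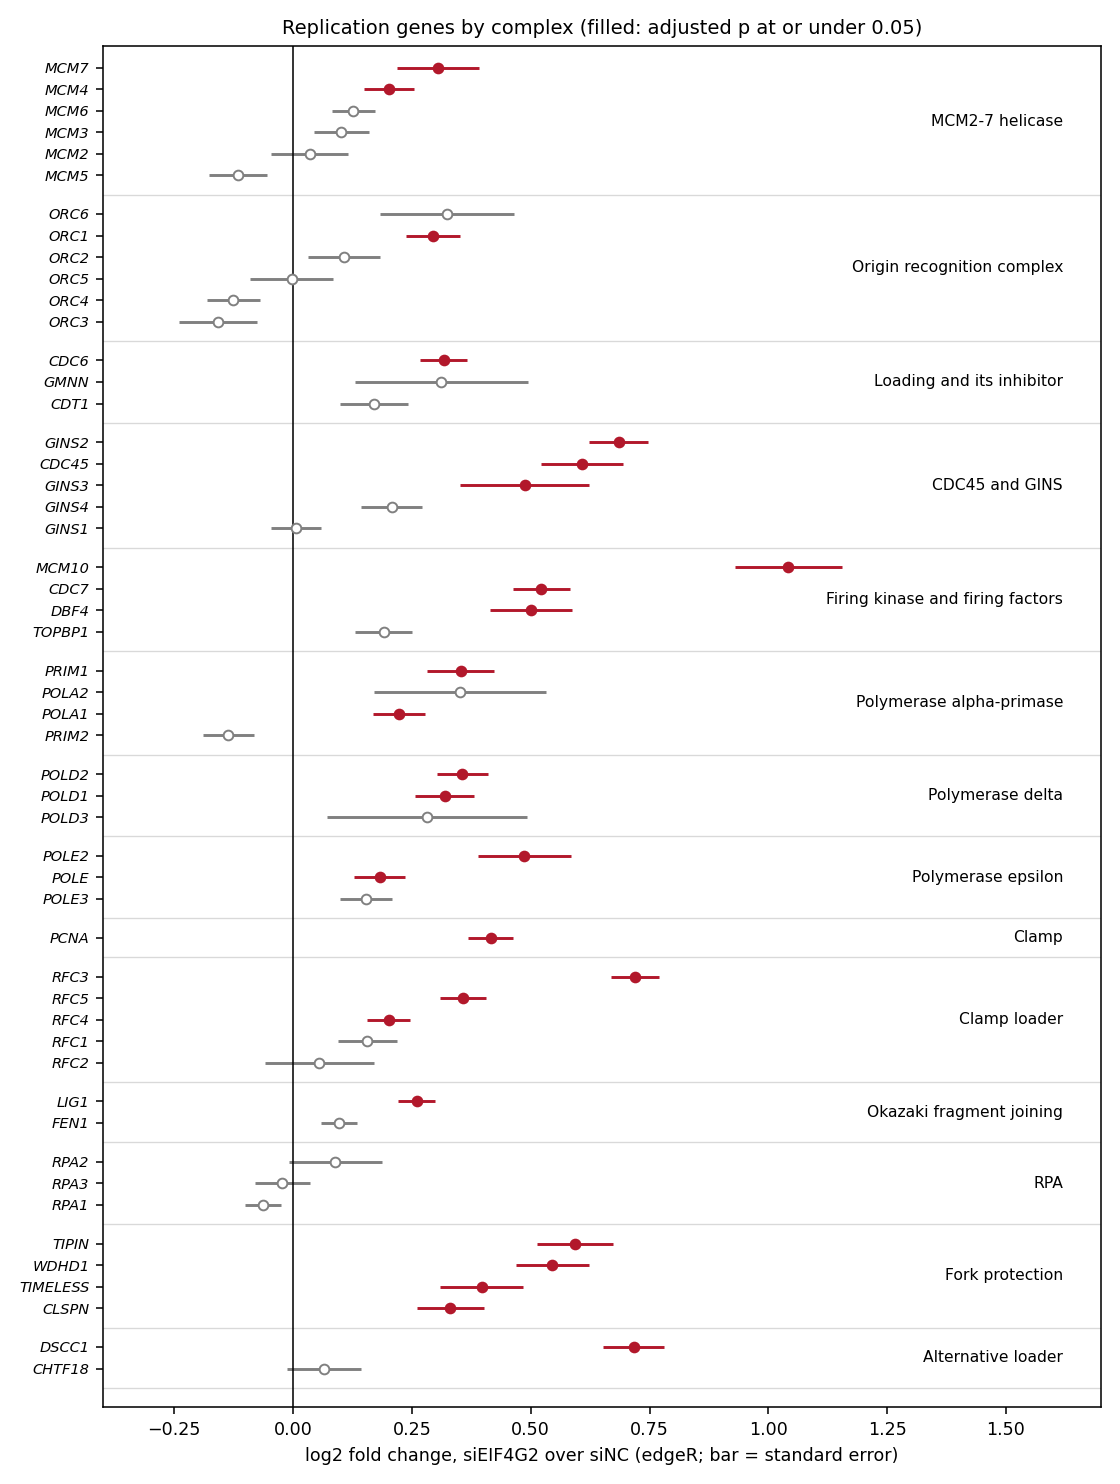
Log2 fold change of siEIF4G2 over siNC for each of the 51 genes, grouped by complex, with points for the edgeR estimate and bars for its standard error. Filled red points mark the 26 genes that passed an adjusted p of 0.05. MCM10 stands farthest right at 1.04, and the RPA genes lie around 0.

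The step that turns loaded MCM2-7 into a moving helicase held the largest single change of the list, in MCM10, and 3 of the 4 genes of the firing kinase and firing factors rose, with a median log2 fold change of 0.51. MCM10 (GRCh38, chr10:13161554-13211104), which binds the helicase and is needed for origin DNA to unwind, had 50.6, 51.8 and 53.0 CPM in siEIF4G2 libraries, against 26.8, 21.0 and 27.7 CPM in siNC libraries. The siEIF4G2 values lay close together and far above each siNC value, a 2.06-fold difference (log2 fold change 1.04 ± 0.11, SE, edgeR adjusted p = 0.00155). CDC7, the kinase that phosphorylates MCM2-7 to fire origins, had 48.3, 51.9 and 47.3 CPM after silencing, against 34.9, 33.0 and 34.8 CPM in siNC libraries. DBF4, the subunit that activates CDC7, had 15.1, 15.7 and 16.6 CPM in siEIF4G2 and 10.5, 11.1 and 11.8 CPM in siNC libraries. Both kinase subunits were separated between the groups and rose by nearly the same amount, by a log2 fold change of 0.52 ± 0.06 for CDC7 (adjusted p = 0.00192) and 0.50 ± 0.09 for DBF4 (adjusted p = 0.00711). TOPBP1, a scaffold that brings firing factors and the checkpoint kinase ATR to DNA, averaged 130.0 ± 7.22 CPM in siEIF4G2 and 114 ± 5.25 CPM in siNC libraries (SD, n = 3 each). Its groups did not overlap but it missed the threshold in edgeR (adjusted p = 0.0534) and in limma (adjusted p = 0.0546 with a pseudocount of 1) and passed in DESeq2 (adjusted p = 0.0400).

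CDC45 and GINS, the parts that join MCM2-7, did not move as a block: 3 of these 5 genes rose. GINS2 (chr16:85676198-85688954) had 62.5, 69.1 and 61.7 CPM in siEIF4G2 libraries, against 39.9, 41.1 and 39.3 CPM in siNC libraries. It was 1.61-fold higher with no overlap (log2 fold change 0.68 ± 0.06, SE, edgeR adjusted p = 0.000876). CDC45 had 51.6, 47.2 and 55.2 CPM after silencing, against 34.7, 30.8 and 35.6 CPM in siNC libraries, a log2 fold change of 0.61 ± 0.09 (adjusted p = 0.00381). GINS3 averaged 35.2 ± 5.50 CPM in siEIF4G2 and 25.1 ± 2.41 CPM in siNC libraries (log2 fold change 0.49 ± 0.14, adjusted p = 0.0374). GINS4 averaged 51.4 ± 0.600 CPM in siEIF4G2 and 44.5 ± 3.04 CPM in siNC libraries and just missed the threshold (adjusted p = 0.0501). GINS1 averaged 35.1 ± 1.23 CPM in siEIF4G2 and 34.9 ± 0.230 CPM in siNC libraries, with overlapping groups (log2 fold change 0.01 ± 0.05). The 4 GINS proteins form 1 complex in equal number. Of their RNAs, set against the summed FPKM of CDC45 and GINS, the shares of GINS1, GINS2 and GINS4 were separated between the groups and that of GINS3 overlapped. GINS1 made up 13.7 ± 0.749% in siEIF4G2 libraries and 18.7 ± 0.265% in siNC libraries, and GINS4 made up 15.41%, 15.06% and 15.08% in the siEIF4G2 libraries and 18.24%, 17.02% and 18.74% in the siNC libraries, both lower shares of a sum that was higher. GINS2 made up 32.3 ± 2.07% in siEIF4G2 and 27.5 ± 1.19% in siNC libraries, and GINS3 11.1 ± 1.52% in siEIF4G2 and 10.9 ± 1.16% in siNC libraries (SD, n = 3 each). Of the 6 fits that leave out 1 library, GINS3 passed in the one without siEIF4G2 replicate 1 (adjusted p = 0.0139). It was lost without siEIF4G2 replicate 2 (adjusted p = 0.0985) or 3 (0.103), and without siNC replicate 1 (0.107), 2 (0.0566) or 3 (0.0887), and with no filter on low values (0.0585). GINS4 passed in DESeq2 (adjusted p = 0.0323), in limma (0.0385 with a pseudocount of 1) and without siNC replicate 3 (0.0403).

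**Figure D2:**
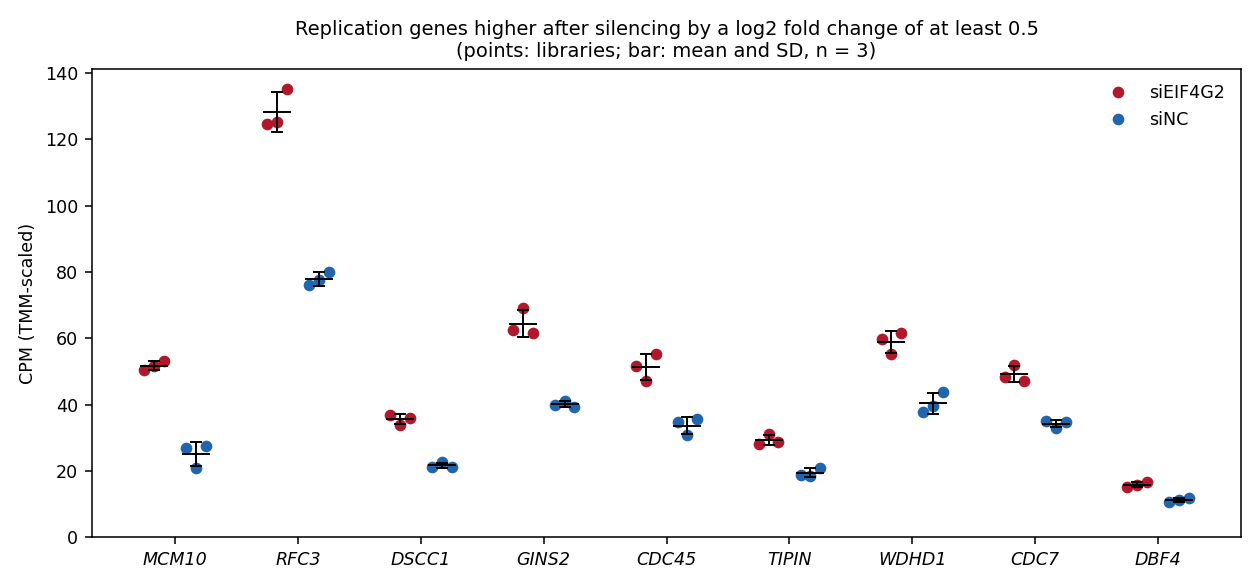
CPM in each library for the 9 genes that rose by a log2 fold change of at least 0.5, siEIF4G2 in red and siNC in blue, with bars for mean and SD (n = 3). In each gene every red point lies above every blue point, which picking genes by their change in these same libraries favours. RFC3, the highest of the 9, averaged 128 CPM in siEIF4G2 and 78.0 CPM in siNC libraries. DBF4, the lowest, averaged 15.8 CPM in siEIF4G2 and 11.2 CPM in siNC libraries.

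In the MCM2-7 ring, which the licensing step loads, 2 of 6 subunits rose, where 15.9% of all tested genes rose. The median log2 fold change of the ring was 0.11. MCM4 had 367, 407 and 379.8 CPM in siEIF4G2 libraries, against 323, 337 and 344 CPM in siNC libraries (log2 fold change 0.20 ± 0.05, SE, edgeR adjusted p = 0.0297). MCM7 averaged 436 ± 50.6 CPM in siEIF4G2 and 352 ± 1.83 CPM in siNC libraries (log2 fold change 0.31 ± 0.09, adjusted p = 0.0385), with the wide spread on the siEIF4G2 side. MCM6, whose promoter holds 2 pairs of overlapping motif matches, averaged 175 ± 2.37 CPM in siEIF4G2 and 160.0 ± 6.66 CPM in siNC libraries (adjusted p = 0.0774). MCM3 stood at 495 ± 35.3 CPM in siEIF4G2 and 461 ± 6.67 CPM in siNC libraries, and MCM2 at 262 ± 16.4 CPM in siEIF4G2 and 256 ± 23.6 CPM in siNC libraries. MCM5 stood at 222 ± 14.4 CPM in siEIF4G2 and 240.4 ± 9.23 CPM in siNC libraries, and none of these 3 passed. MCM5 took 7.28 ± 0.339% of the summed FPKM of the ring in siEIF4G2 and 8.68 ± 0.356% in siNC libraries, with no overlap. The MCM4 call was lost without siEIF4G2 replicate 2 (adjusted p = 0.0546) or 3 (0.0646) and without siNC replicate 1 (0.0943), 2 (0.0776) or 3 (0.0505), and with no filter on low values (0.0563). The MCM7 call was lost without siEIF4G2 replicate 2 (adjusted p = 0.0913) or 3 (0.106) and without siNC replicate 1 (0.102), 2 (0.0962) or 3 (0.0882), and with no filter (0.0635).

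Of the 6 subunits of the origin recognition complex, ORC1 alone rose. That count is near the 15.9% of all tested genes that rose. ORC1, the subunit whose protein is cleared from human chromatin after G1, had 54.0, 58.3 and 56.1 CPM in siEIF4G2 libraries, against 44.2, 45.2 and 47.9 CPM in siNC libraries (log2 fold change 0.29 ± 0.06, SE, edgeR adjusted p = 0.0109). ORC6 had 50.7, 48.0 and 50.2 CPM in siEIF4G2, against 44.1, 31.1 and 43.8 CPM in siNC libraries. Its groups did not overlap, siNC replicate 2 lay far below the other 2, and it did not pass (adjusted p = 0.126). ORC2 stood at 40.0 ± 3.42 CPM in siEIF4G2 and 37.2 ± 0.629 CPM in siNC libraries and ORC5 at 32.2 ± 2.72 CPM in siEIF4G2 and 32.3 ± 2.07 CPM in siNC libraries, both with overlap. ORC4 averaged 29.5 ± 0.501 CPM in siEIF4G2 and 32.2 ± 1.10 CPM in siNC libraries (adjusted p = 0.132), and ORC3 averaged 49.0 ± 4.24 CPM in siEIF4G2 and 54.7 ± 3.13 CPM in siNC libraries (adjusted p = 0.189). As a share of the summed FPKM of the complex, ORC1 made up 29.2 ± 0.348% in siEIF4G2 and 25.6 ± 1.42% in siNC libraries. ORC3 made up 21.5 ± 1.25% in siEIF4G2 and 25.9 ± 0.0692% in siNC libraries. Neither share overlapped between the groups. The share of ORC6 was also higher, and those of ORC4 and ORC5 lower, without overlap, while that of ORC2 overlapped.

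The loading factor CDC6, an ATPase that works with the origin recognition complex, had 169, 169.7 and 173 CPM in siEIF4G2 libraries, against 129, 139 and 143 CPM in siNC libraries. The groups were separated (log2 fold change 0.32 ± 0.05, SE, edgeR adjusted p = 0.00494). CDT1, which brings the MCM ring to the origin, averaged 89.3 ± 6.14 CPM in siEIF4G2 and 79.3 ± 4.64 CPM in siNC libraries, separated but not past the threshold (adjusted p = 0.117). Its inhibitor GMNN had 114, 161 and 117 CPM in siEIF4G2, against 94.0, 127 and 94.7 CPM in siNC libraries. Replicate 2 was the high one in both groups, the groups overlapped, and GMNN did not pass (adjusted p = 0.235). The ratio of CDT1 to GMNN, in FPKM, was 0.624 ± 0.0767 in siEIF4G2 and 0.687 ± 0.0967 in siNC libraries (SD, n = 3 each), with overlap.

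**Figure D3:**
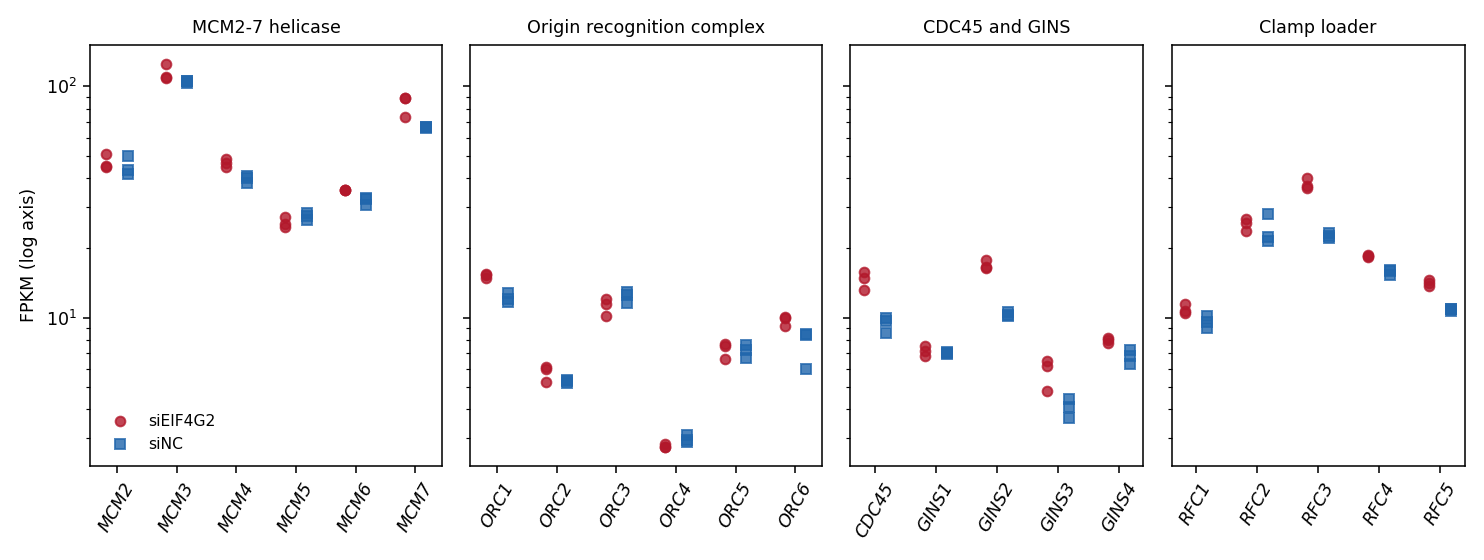
FPKM per library, on a log axis, for the subunits of 4 complexes, with siEIF4G2 as red circles left of siNC as blue squares. Within a complex the levels differ by several fold, with MCM3 at 115 FPKM in siEIF4G2 and 105 FPKM in siNC libraries at the top of the ring, and ORC4 at 2.79 FPKM in siEIF4G2 and 2.99 FPKM in siNC libraries at the bottom of the origin recognition complex.

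The clamp loader held the smallest p of the list. RFC3 (chr13:33818069-33966558), a subunit of replication factor C, had 125, 125 and 135 CPM in siEIF4G2 libraries, against 76.1, 77.7 and 80.1 CPM in siNC libraries. It was 1.65-fold higher, with wide room between the groups (log2 fold change 0.72 ± 0.05, SE, edgeR adjusted p = 0.00047). RFC5 averaged 54.3 ± 1.79 CPM in siEIF4G2 and 42.4 ± 0.466 CPM in siNC libraries (log2 fold change 0.36 ± 0.05, adjusted p = 0.00334), and RFC4 65.5 ± 1.36 CPM in siEIF4G2 and 57.0 ± 1.24 CPM in siNC libraries (log2 fold change 0.20 ± 0.05, adjusted p = 0.0182). RFC1, the large subunit, averaged 86.4 ± 4.24 CPM in siEIF4G2 and 77.5 ± 4.30 CPM in siNC libraries (adjusted p = 0.104). RFC2 had 69.0, 68.3 and 61.8 CPM in siEIF4G2, against 74.9, 59.5 and 57.2 CPM in siNC libraries, an overlap (adjusted p = 0.746). RFC3 made up 35.6 ± 1.44% of the summed FPKM of the 5 subunits in siEIF4G2 and 27.4 ± 1.45% in siNC libraries. RFC2 made up 23.8 ± 1.59% in siEIF4G2 and 28.9 ± 3.41% in siNC libraries. Neither share overlapped between the groups. The shares of RFC1 and RFC4 were also lower without overlap, and that of RFC5 overlapped. RFC4 no longer passed on leaving out siNC replicate 1 (adjusted p = 0.0645) or 2 (0.0535) or siEIF4G2 replicate 1 (0.0504).

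DSCC1 belongs to a second clamp loader, in which it and CHTF18 join the small RFC subunits. It had 37.0, 33.9 and 36.1 CPM in siEIF4G2 libraries, against 21.1, 22.7 and 21.2 CPM in siNC libraries (log2 fold change 0.72 ± 0.06, SE, edgeR adjusted p = 0.000893). Its partner CHTF18 averaged 23.1 ± 1.29 CPM in siEIF4G2 and 22.1 ± 1.36 CPM in siNC libraries, with overlap (adjusted p = 0.563). In FPKM, DSCC1 stood at 3.70 ± 0.344 times the level of CHTF18 in siEIF4G2 and at 2.35 ± 0.0629 times in siNC libraries. PCNA, the clamp that both loaders place on DNA, had 363, 394 and 388 CPM in siEIF4G2, against 282, 282 and 294 CPM in siNC libraries. Per length it was the most abundant gene of the list, at 229.7 ± 8.09 FPKM in siEIF4G2 and 169 ± 4.49 FPKM in siNC libraries, and it rose 1.33-fold (log2 fold change 0.42 ± 0.05, adjusted p = 0.00179).

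Among the polymerases, 6 of the 10 listed genes rose, 2 in each of the 3 enzymes. Outside the list, POLD4 of polymerase delta had a log2 fold change of -0.63 ± 0.25 (edgeR adjusted p = 0.104). POLE4 of polymerase epsilon had -0.12 ± 0.07 (edgeR adjusted p = 0.228). In polymerase alpha-primase PRIM1, the catalytic primase subunit, had 49.1, 48.1 and 55.6 CPM in siEIF4G2 libraries, against 40.3, 39.0 and 40.4 CPM in siNC libraries (log2 fold change 0.35 ± 0.07, SE, edgeR adjusted p = 0.012). Its partner PRIM2 had 58.1, 53.6 and 53.8 CPM in siEIF4G2, against 59.3, 61.1 and 61.4 CPM in siNC libraries, all 3 below (log2 fold change -0.14 ± 0.05, adjusted p = 0.0966). The ratio of PRIM1 to PRIM2, in FPKM, was 1.83 ± 0.193 in siEIF4G2 and 1.3 ± 0.0424 in siNC libraries (SD, n = 3 each). POLA1, the catalytic subunit, averaged 167 ± 7.46 CPM in siEIF4G2 and 143 ± 6.24 CPM in siNC libraries (log2 fold change 0.22 ± 0.05, adjusted p = 0.0241). Leaving out siEIF4G2 replicate 1 or 3, or siNC replicate 1 or 2, ended the POLA1 call (adjusted p between 0.0615 and 0.0701). POLA2 had 30.9, 49.1 and 46.9 CPM in siEIF4G2, against 34.8, 34.3 and 30.2 CPM in siNC libraries. The siEIF4G2 replicate 1 value stood among the siNC values. POLA2 did not pass with all libraries (log2 fold change 0.35 ± 0.18, adjusted p = 0.186) and passed without that library (0.54, adjusted p = 0.0135).

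In polymerase delta, which extends the lagging strand, POLD2 had 156, 148 and 153 CPM in siEIF4G2 libraries, against 112, 125 and 119 CPM in siNC libraries (log2 fold change 0.36 ± 0.05, SE, edgeR adjusted p = 0.00454). The catalytic subunit POLD1 averaged 86.1 ± 4.06 CPM in siEIF4G2 and 69.0 ± 3.84 CPM in siNC libraries (log2 fold change 0.32 ± 0.06, adjusted p = 0.0111). POLD3 scattered in both groups, with 40.7, 30.4 and 45.3 CPM in siEIF4G2 and 36.7, 35.1 and 24.0 CPM in siNC libraries, and did not pass (adjusted p = 0.35). In polymerase epsilon, which extends the leading strand, POLE2 had 16.9, 16.9 and 16.8 CPM in siEIF4G2, against 13.3, 10.8 and 12 CPM in siNC libraries (log2 fold change 0.49 ± 0.10, adjusted p = 0.0121). The catalytic subunit POLE averaged 96.5 ± 0.445 CPM in siEIF4G2 and 85.1 ± 4.94 CPM in siNC libraries (log2 fold change 0.18 ± 0.05, adjusted p = 0.045), and POLE3 159 ± 8.13 CPM in siEIF4G2 and 143 ± 5.34 CPM in siNC libraries (adjusted p = 0.0784). Of the 6 fits that leave out 1 library, POLE passed in the one without siNC replicate 2 (adjusted p = 0.0355). It was lost without siEIF4G2 replicate 1 (adjusted p = 0.102), 2 (0.0846) or 3 (0.102) and without siNC replicate 1 (0.114) or 3 (0.0986). It was also lost in limma (0.0583 with a pseudocount of 1, 0.0564 with one of 0.1) and with no filter on low values (0.0742).

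For the joining of Okazaki fragments, the ligase LIG1 had 116, 116 and 119.7 CPM in siEIF4G2 libraries, against 97.5, 97.9 and 97.8 CPM in siNC libraries. The siNC values were nearly the same and the log2 fold change was 0.26 ± 0.04 (SE, edgeR adjusted p = 0.00422). The flap nuclease FEN1 averaged 269 ± 5.85 CPM in siEIF4G2 and 252 ± 5.22 CPM in siNC libraries, separated by a small step that did not pass (adjusted p = 0.104). RPA, which coats single-stranded DNA behind the helicase, was the complex with no call, in edgeR, DESeq2 or limma, and with no member at an unadjusted p under 0.05. RPA1 had 282, 289.8 and 275 CPM in siEIF4G2, against 291, 295 and 299.7 CPM in siNC libraries (log2 fold change -0.06 ± 0.04, adjusted p = 0.253). RPA2 stood at 89.0 ± 8.27 CPM in siEIF4G2 and 83.7 ± 8.12 CPM in siNC libraries, and RPA3 at 29.5 ± 0.895 CPM in siEIF4G2 and 29.9 ± 0.947 CPM in siNC libraries, both with overlap.

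All 4 fork protection genes rose. TIPIN, which with TIMELESS forms a complex that couples helicase and polymerase, had 28.1, 31.2 and 28.9 CPM in siEIF4G2 libraries, against 18.9, 18.4 and 21.0 CPM in siNC libraries (log2 fold change 0.59 ± 0.08, SE, edgeR adjusted p = 0.00314). TIMELESS had 126, 139.6 and 129.8 CPM in siEIF4G2, against 92.9, 94.9 and 113 CPM in siNC libraries (log2 fold change 0.40 ± 0.09, adjusted p = 0.0172). The ratio of TIPIN to TIMELESS, in FPKM, was 0.476 ± 0.000858 in siEIF4G2 and 0.416 ± 0.0182 in siNC libraries (SD, n = 3 each). WDHD1, known in yeast as Ctf4, which ties polymerase alpha to the helicase, had 59.7, 55.4 and 61.8 CPM in siEIF4G2, against 37.9, 39.5 and 43.8 CPM in siNC libraries (log2 fold change 0.55 ± 0.08, adjusted p = 0.00357). The checkpoint mediator CLSPN averaged 63.2 ± 4.40 CPM in siEIF4G2 and 50.2 ± 2.51 CPM in siNC libraries (log2 fold change 0.33 ± 0.07, adjusted p = 0.0158). The TIMELESS call was lost without siNC replicate 1 (adjusted p = 0.0545) or 2 (0.057), and the CLSPN call without siNC replicate 2 (0.0527) or, at the rounding of the threshold, siEIF4G2 replicate 1 (0.05).

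Genes paired by role kept or changed their ratio from pair to pair. DBF4 over CDC7, in FPKM, was 0.251 ± 0.0202 in siEIF4G2 and 0.254 ± 0.0164 in siNC libraries, with overlap, like CDT1 over GMNN. POLE2 over POLE was 0.989 ± 0.00881 in siEIF4G2 and 0.806 ± 0.130 in siNC libraries, and it was separated between the groups, as were PRIM1 over PRIM2, TIPIN over TIMELESS and DSCC1 over CHTF18. The 6 pairs were set up after values of these genes were known, so the ratios are given with no test. Separation is common among single tested genes, of which 25.0% were separated upward and 25.6% downward. No such share was worked out for ratios or for subunit shares.

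**Figure D4:**
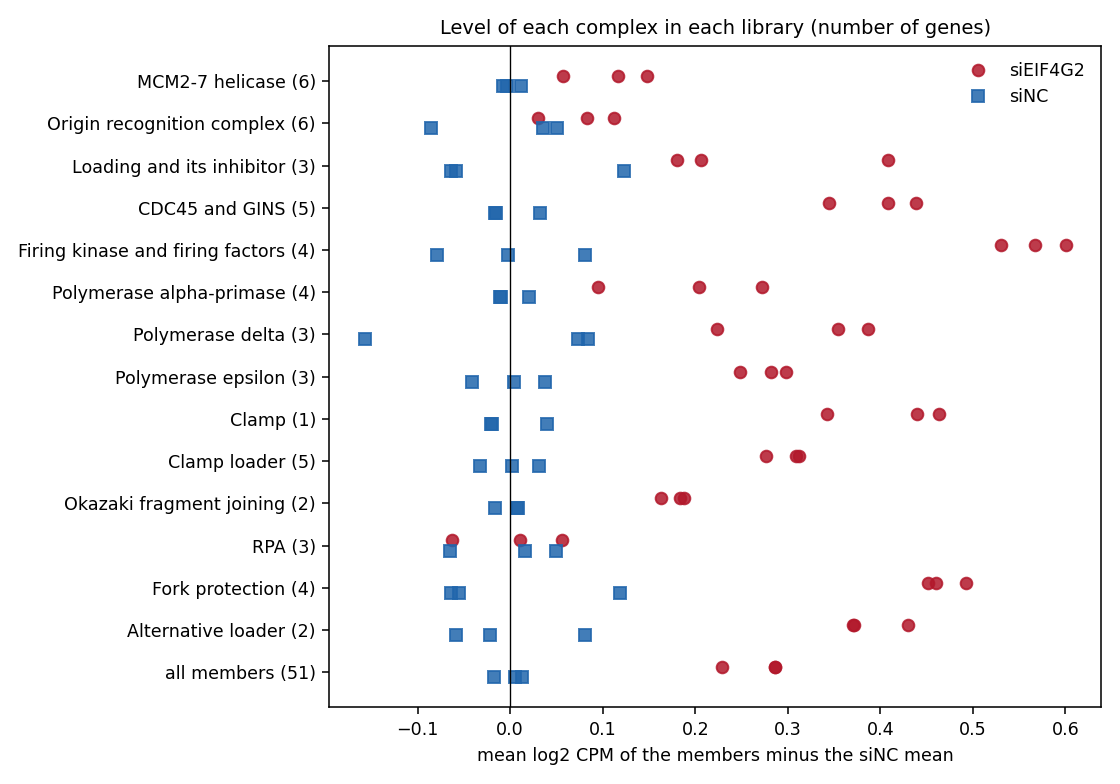
Mean log2 CPM of the genes of each complex in each library, minus the mean of the siNC libraries, with siEIF4G2 as red circles and siNC as blue squares. The red points lie right of the blue ones in all complexes but the origin recognition complex and RPA, and over all 51 genes they lie at 0.23, 0.29 and 0.29.

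Averaged by complex, the firing factors lay at 0.53, 0.57 and 0.60 on the log2 scale in siEIF4G2 replicates 1, 2 and 3, and stood at 0.00, -0.08 and 0.08 in the siNC replicates, relative to the siNC mean. Fork protection lay at 0.45, 0.46 and 0.49 in siEIF4G2, against -0.05, -0.06 and 0.12 in siNC libraries. The MCM2-7 ring lay at 0.06, 0.15 and 0.12 in siEIF4G2, against -0.01, 0.01 and 0.00 in siNC libraries. RPA stood at -0.06, 0.06 and 0.01 in siEIF4G2, against 0.05, -0.07 and 0.02 in siNC libraries. The groups overlapped for RPA and for the origin recognition complex and were separated for the other sets in the plot of complex levels. Of single tested genes 25.0% were separated upward and 25.6% downward, and no such share was worked out for averages over several genes.

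E2F motifs were common in the promoters of the list. RefSeq promoters, 250 bases before to 50 after the annotated start, were found for 44 of the 51 genes. At least 1 of the 4 E2F motifs, on either strand, was present in 22 of these 44 genes (50.0%), where 7.09% of the 9375 tested genes with a promoter and 3.99% of all 27305 genes had one. Genes that rose stood on both sides of this split. Of the 22 with a match 13 rose and the median log2 fold change was 0.31. Of the 22 without a match 11 rose and the median was 0.25. Of all tested genes 15.9% rose, and that share was not split by motif. Whether the motif bears on the change was not tested. MCM10, CDC45 and DBF4 are among those that rose with no match in the windows, while MCM6 has 4 matches in 2 overlapping pairs, MCM2, MCM3 and GINS1 hold matches too, and none of these 4 passed the test. The CCAAT motif, on either strand, was in 56.8% of the members and 43.5% of the tested genes, and TTTGAA, the core of the cell cycle homology region, in 4.55% of the members and 13.3% of the tested genes. These motifs were picked with the results known, and a match is a description of the letters and not of binding.

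**Figure D5:**
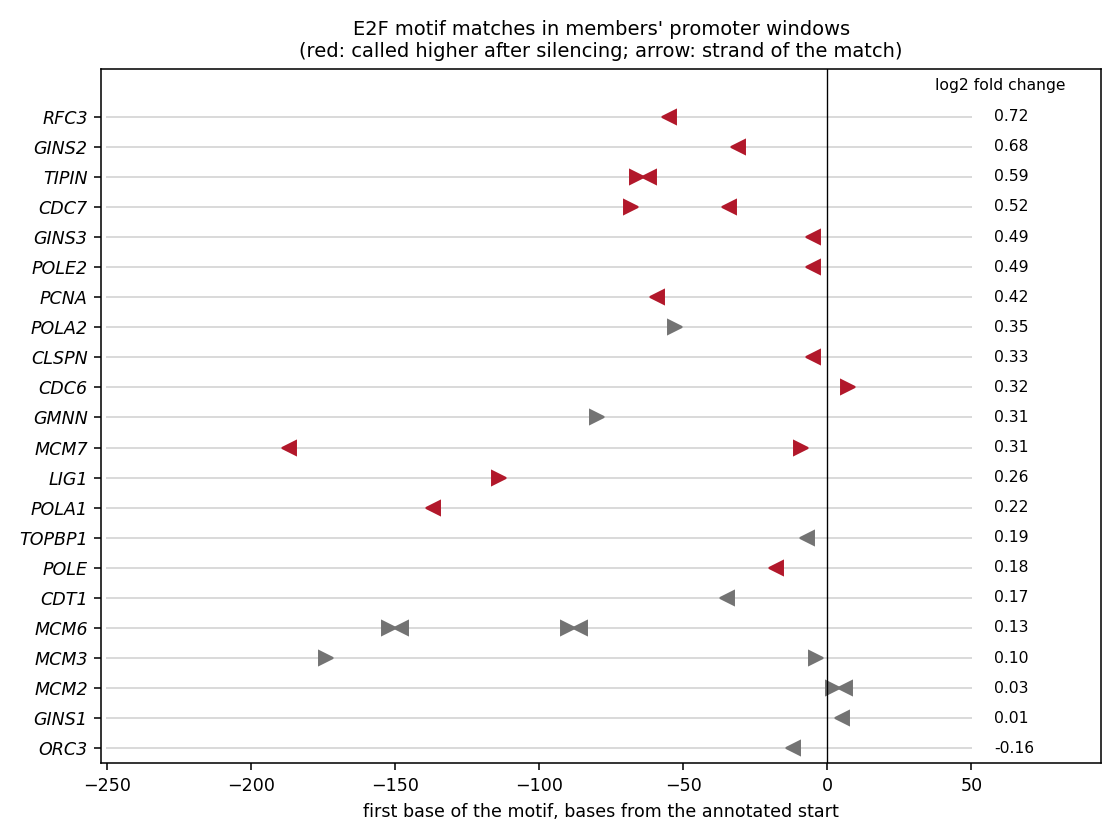
Position of each E2F motif match in the 22 promoters that hold one, in bases from the annotated start, with arrows for the strand and genes ordered by log2 fold change, printed at the right. Red genes rose and grey ones did not pass. Matches lie mostly within 100 bases of the start, from RFC3 at 0.72 to ORC3 at -0.16.

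Outside the list, 53 further genes of replication were read as a group. Of them 23 rose and 4 fell, where 15.9% of all tested genes rose and 17.6% fell, and the median log2 fold change was 0.18. The smallest p belonged to CCNA2, the cyclin of S and G2 phase, which averaged 100.3 ± 3.46 CPM in siEIF4G2 and 62.0 ± 2.41 CPM in siNC libraries (log2 fold change 0.69 ± 0.05, SE, edgeR adjusted p = 0.00053). SSRP1, a subunit of the histone chaperone FACT, averaged 444 ± 5.0 CPM in siEIF4G2 and 326 ± 4.70 CPM in siNC libraries (log2 fold change 0.44 ± 0.03, SE, edgeR adjusted p = 0.000576), and TOP1, which relaxes DNA ahead of the fork, averaged 154 ± 5.59 CPM in siEIF4G2 and 109 ± 2.12 CPM in siNC libraries (0.50 ± 0.04, adjusted p = 0.000844). ATR, the kinase of the replication checkpoint, went the other way, at 34.4 ± 0.376 CPM in siEIF4G2 and 50.3 ± 1.33 CPM in siNC libraries (-0.55 ± 0.05, adjusted p = 0.000849). The other 3 that fell were STN1, LRWD1 and RAD9A, which were picked out after their values were seen because the count is small. The count of genes that fell was 2 without siEIF4G2 replicate 1, siNC replicate 1 or siNC replicate 2.

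Most mitotic markers were also higher. Of 14 markers 12 rose and all 14 had a positive log2 fold change, with a median of 0.58, where 15.9% of all tested genes rose and 6991 of 13748 had a positive one. KIF11, a spindle motor, averaged 144 ± 5.15 CPM in siEIF4G2 and 86.3 ± 3.26 CPM in siNC libraries (log2 fold change 0.73 ± 0.05, SE, edgeR adjusted p = 0.00043), and CCNB1, the mitotic cyclin, 222 ± 3.30 CPM in siEIF4G2 and 145 ± 4.93 CPM in siNC libraries (0.61 ± 0.04, adjusted p = 0.000442). TPX2 and CCNB2 followed at 0.44 ± 0.03 and 0.49 ± 0.04. The part of the share of cycling cells in the replication results was not tested.

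Some rows may share reads with a neighbour. The intervals of 17 members overlap another tested gene, and the use of strand in counting is not stated. On the same strand, POLA2 shares 43662 bases with AP000944, PRIM1 10240 bases with AC117378, FEN1 4259 bases with FADS2, POLD3 4683 bases with AP001372, RFC3 4636 bases with AL161891 and TIPIN 579 bases with RPL9P25, and MCM7 contains MIR25, MIR93 and MIR106B. PRIM1 also shares 333 bases on its strand with NACA, and the mean count per library was 3104 for PRIM1 and 27553 for NACA. On the other strand RPA3 shares 77897 bases with UMAD1, the longest overlap of the list. The values of these genes are uncertain to the extent that the counting split such reads.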

How the data were processed

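The authors deposited 1 table with a count and an FPKM value per gene and library. The deposited counts are whole numbers and may be rounded estimated counts, which was not tested. They were used as they stand. HISAT2 2.0 and StringTie 1.3.0 are named, without a role, per the submitters' processing notes, while the genome build, the annotation and the strand setting are not given in the sources used. Deposited gene intervals overlapped those of GENCODE 29 on GRCh38 for all 51 members and for 99.9% of 49060 shared identifiers, so positions are given on GRCh38.

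Of rows sharing a symbol the one with the highest mean FPKM was kept, and 13748 genes entered the test, those that reached 0.5 FPKM in 3 or more libraries. The test was edgeR's quasi-likelihood test with TMM factors (0.985 to 1.02) and the group alone in the model, two-sided, with Benjamini-Hochberg adjustment over all tested genes. CPM are counts over the library total, scaled by TMM. Standard errors were derived from the log2 fold change and the F statistic, as its size over the square root of F. The fit was also run on counts simulated from its own model with known changes, and the outcome is not given here. Such counts cannot show how the fit treats rounded estimated counts. Tools were DESeq2 1.42.0, edgeR 4.0.16 and limma 3.58.1 in R 4.3.3, and pandas 2.3.3, matplotlib 3.10.9 and numpy 2.4.6 in Python 3.11.15. No 2 libraries of the same group agreed within sampling noise (chi-square per gene at least 68.5).

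The members, the lists and the rule for named genes were chosen with earlier results of these data known. All members are reported. Values per library are given at least for members past the threshold with a log2 fold change of 0.5 or more and for the member with the smallest p in each complex, and for others that scatter or pair with these. From the lists of 53 replication genes and 14 mitotic markers, 4 genes with the smallest p each are named. POLD4 and POLE4 are named beside their enzymes, and STN1, LRWD1 and RAD9A as genes that fell, all after their values were seen. Alternatives were other scalings, tests, filters and pseudocounts, a replicate block, and leaving out each library.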

Additional observations from a re-analysis of the deposited data

How the results depend on the processing

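The number of members that rose was 22 to 31 under the alternatives that kept all libraries (31 with library totals only, 29 with limma on log2(FPKM + 1) or log2(FPKM + 0.1), 28 with DESeq2, 22 with no filter) and 19 to 23 on leaving out 1 library, and 0 members fell in each of them. Over all tested genes, the calls in either direction were 4597 in the report's test and 4645 with library totals only. They were 4641 and 4632 with limma, 5343 with DESeq2, 3909 with no filter and 3352 to 4134 on leaving out 1 library. The direction and call of 31 members, 18 of which rose, were the same under every alternative run. A few members near 0 changed sign, all far from the threshold. On leaving out 1 library, the log2 fold change of MCM2 lay between -0.018 (without siEIF4G2 replicate 3) and 0.11, of GINS1 between -0.018 (without siEIF4G2 replicate 1) and 0.029, of RFC2 between -0.013 (without siNC replicate 3) and 0.19, of ORC5 between -0.0502 and 0.069 and of RPA3 between -0.049 and 0.0039. ORC5 and RPA3, just under 0 in the report's test, stood at 0.0226 and 0.0035 with library totals only, at 0.0194 and 0.0033 in limma with a pseudocount of 1 and at 0.0216 and 0.0037 with one of 0.1, and ORC5 at 0.0028 with no filter and 0.0025 with rows of a symbol summed. The count of other replication genes that fell was 2 to 4 on leaving out 1 library, and 3 to 5 otherwise. The cause of these shifts was not tested. Same-numbered libraries did not deviate together across the tested genes (correlations of -0.03, 0.02 and 0.03), and the labels give no shared source. A pairing with little shared effect would give such values too, so whether the replicate numbers pair the libraries is not known. A fit with the replicate block gave 25 members that rose and 0 that fell. It lost MCM7 (adjusted p = 0.0573), POLE (0.0747) and RFC4 (0.05) and added GMNN (0.016) and TOPBP1 (0.0447). MCM6, POLE3 and FEN1, which did not pass in edgeR, passed in limma with either pseudocount (adjusted p between 0.0303 and 0.0434) and with library totals only (between 0.0387 and 0.0475). With 3 libraries per group, the smallest log2 fold change among members that passed was 0.18, for POLE, and a member that missed the threshold is not shown to be at the same level in both groups.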
